A study of Arabidopsis thaliana with 12 samples.

Results

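Aquaporins of Arabidopsis were examined as a family of 35 loci, the plasma membrane (PIP1 and PIP2), tonoplast (TIP), nodulin 26-like (NIP) and small basic (SIP) intrinsic proteins. The members were 5 PIP1, 8 PIP2, 10 TIP, 9 NIP and 3 SIP loci, found through the accession that the array gives for each probe, among 25405 loci on the array. All 35 had at least 1 probe, and 80 probes in all. Their names are written here with a hyphen (PIP2-1), where the field mostly uses a semicolon.

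Total RNA was measured on 12 single-colour arrays, 3 in each of 4 groups. The groups were proatcape1 seedlings in 125 mM NaCl (proatcape1 salt), proatcape1 seedlings in medium alone (proatcape1 control), wild-type seedlings in NaCl (WT salt) and wild-type seedlings in medium alone (WT control). All were whole 10-day-old seedlings of the Ler accession, 10 to a sample, grown on half-strength MS medium and taken from 3 independent experiments. The mutant is 1 T-DNA line of AT4G33730, the gene of the precursor of the peptide AtCAPE1, so what the insertion does and what else differs in that line cannot be told apart. The labels give 0 h for medium alone and 12 h for NaCl, so the salt and the hours cannot be told apart either.

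AT4G33730 had processed signals of 3.99, 6.36 and 2.97 in proatcape1 salt and 5.98, 3.88 and 3.23 in proatcape1 control, well above background on 0 of 6 arrays. It had 56.6, 44.5 and 48.3 in WT salt and 641, 869 and 590 in WT control, so the measured gene fits the labels. From 71.8% to 78.8% of probes were well above background on an array, and no spot was saturated. With 3 arrays to a group, precision rests on few samples throughout. Shoot markers were present at 1605 to 1717 and 1491 to 1648 times the 75th percentile, summed over 10 genes, in proatcape1 salt and control, against 1435 to 1447 and 1453 to 1562 in WT salt and control, and root markers were present as well, as the label of whole seedlings says.

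Aquaporins are membrane channels that let water, and in some members small uncharged solutes such as boric acid, arsenite, glycerol or ammonia, pass along their gradient. PIPs sit mainly in the plasma membrane and TIPs in the vacuolar membrane, and together they set much of the water permeability of root and leaf cells. NIPs mostly carry metalloids and glycerol, and SIPs are found in the endoplasmic reticulum. Salt lowers the water potential around the root, and aquaporin amounts, trafficking and phosphorylation are known points at which plants adjust water flow under it.

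A level is given below as relative signal, the probe's signal divided by the 75th percentile of its array, and a change as a difference of mean log2 relative signal between 3 arrays and 3 arrays, with its standard error (SE). Levels of different genes come from different probes and are not set against each other. A gene was called when its adjusted p was at most 0.05 and its change over 1.5-fold. Of the 35 members, 30 passed the filter on dim probes and were tested. The filter (signal over 100 on all 3 arrays of a group, with a CV under 50%) was met in all 4 groups by 26 of these, and TIP5-1 (AT3G47440), NIP4-2 (AT5G37820), NIP6-1 (AT1G80760) and TIP3-1 (AT1G73190) met it in only some groups. TIP1-3 (AT4G01470), TIP3-2 (AT1G17810), NIP2-1 (AT2G34390), NIP4-1 (AT5G37810) and NIP7-1 (AT3G06100) did not meet it and were not tested.

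The called PIP1 members were all higher in salt, and PIP2 held called members in both directions. The called TIP and NIP members were lower, apart from TIP3-1 in WT and NIP6-1 in both genotypes. In proatcape1, 18 of the 30 tested members were called, 9 higher and 9 lower, and 12 were not, where 45.8% of all 19027 genes tested were called, 19.6% higher and 26.2% lower. In WT, 17 members were called, 10 higher and 7 lower, and 13 were not, where 39.3% of all genes were called, 17.5% higher and 21.8% lower. NIP6-1, counted as higher in both genotypes, met the filter only in the 2 salt groups, and TIP3-1, counted as higher in WT, only in WT salt, so both were tested only because they were high there. The PIP1 median was 1.15 in proatcape1 and 1.24 in WT, and the PIP2 median 0.71 in proatcape1 and 0.59 in WT. The TIP median was −0.62 in proatcape1 and −0.42 in WT. The NIP median was −0.04 in proatcape1 and −0.05 in WT, over a range of −3.29 to 1.84 and −3.10 to 3.08, and the SIP median 0.43 in proatcape1 and 0.36 in WT. The median of all genes tested was −0.13 in proatcape1 and −0.11 in WT. Both genotypes called the same 9 members higher and the same 7 lower, where 16.5% of all genes were called higher in both and 20.4% lower in both, and 11 members were called in neither. The 2 salt effects share no arrays but share slides.

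**Figure D1:**
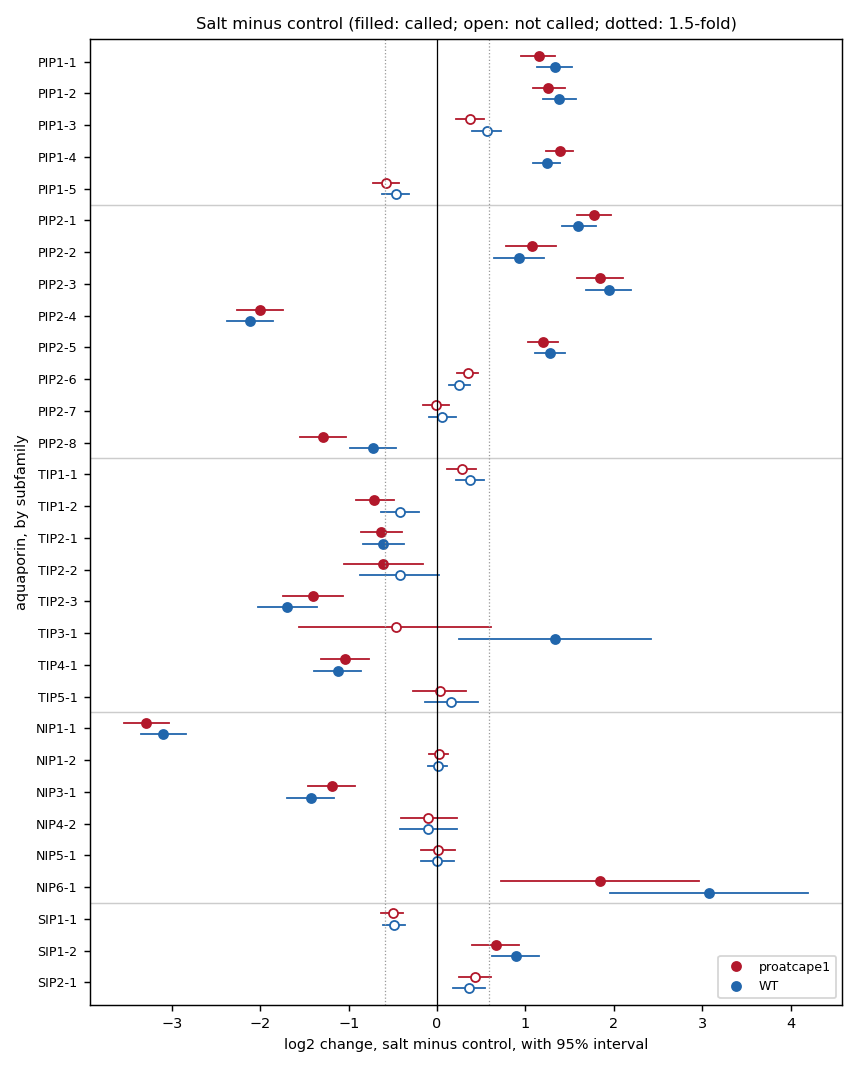
Log2 change of 30 tested aquaporins, salt minus control, on the x axis, with members down the page by subfamily. Red is proatcape1 and blue is WT, bars are 95% intervals, filled points were called, and dotted lines mark 1.5-fold. PIP1-1, PIP1-2, PIP1-4, PIP2-1, PIP2-2, PIP2-3 and PIP2-5 lie between 0.93 and 1.95, and NIP1-1 lies at −3.29 and −3.10.

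Counted by arrays rather than by the model, every salt array lay above every control array for 13 members in proatcape1 and 14 in WT, where 34.9% and 32.8% of all genes did so. Every salt array lay below every control array for 11 members in proatcape1 and 10 in WT, where 49.8% and 48.2% of all genes did so. Every slide held 1 array of each group. The salt and control arrays of every called member did not overlap, so its change had to have the same sign within each of the 3 slides. The agreement of slides in sign therefore adds no support.

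Of the PIP1 members, PIP1-1 (AT3G61430), PIP1-2 (AT2G45960) and PIP1-4 (AT4G00430) rose in both genotypes. PIP1 proteins move water poorly on their own in many test systems, and in maize they reach the plasma membrane by pairing with PIP2 proteins. PIP1-2, a widely expressed member, had a relative signal of 31.9, 32.6 and 36.6 in proatcape1 salt, against 13.2, 14.4 and 14.6 in proatcape1 control. In WT it had 33.5, 33.7 and 39.9 in salt, against 12.8, 14.6 and 13.6 in control. The salt arrays were all more than 2 times the control arrays, with changes of 1.26 (SE 0.08, adjusted p = 1.11e-07) in proatcape1 and 1.38 (SE 0.08, adjusted p = 8.1e-08) in WT. PIP1-4 had 22, 22.7 and 23.5 in proatcape1 salt, against 8.06, 8.72 and 9.37 in proatcape1 control. It had 22.3, 19.2 and 21.4 in WT salt, against 8.87, 8.51 and 9.22 in WT control. The groups did not overlap, and the changes were 1.39 (SE 0.07) in proatcape1 and 1.24 (SE 0.07) in WT. PIP1-1 changed by 1.15 (SE 0.09) in proatcape1 and 1.33 (SE 0.09) in WT.

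The other 2 PIP1 members were not called, each lying just inside 1.5-fold in 1 genotype. PIP1-5 (AT4G23400) changed by −0.58 (SE 0.07) in proatcape1, 1.49-fold lower, and by −0.47 (SE 0.07) in WT, with every salt array below every control array. PIP1-3 (AT1G01620) changed by 0.37 (SE 0.07) in proatcape1 and 0.56 (SE 0.07) in WT, 1.47-fold higher. Which probe was read mattered for both. The second kept probe of PIP1-5 gave −0.82 in proatcape1 and −0.79 in WT, past 1.5-fold, and the mean over its 2 probes was called lower in both genotypes. The dimmer probes of PIP1-3 gave −0.06 and −0.01 in proatcape1 and 0.11 and 0.20 in WT.

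Of the PIP2 members, 4 rose and 2 fell in each genotype. PIP2-1 (AT3G53420), a water channel of roots and guard cells that the kinase OST1 phosphorylates, had a relative signal of 70.2, 76.9 and 79.9 in proatcape1 salt, against 21.3, 23.1 and 21.8 in proatcape1 control. In WT it had 70.4, 67 and 79.3 in salt, against 22.6, 26.9 and 22.1 in control. Its salt arrays were well apart from its control arrays, with changes of 1.78 (SE 0.09, adjusted p = 1.27e-08) in proatcape1 and 1.60 (SE 0.09, adjusted p = 3.84e-08) in WT. All 6 probes of PIP2-1 were higher in salt, by 1.72 to 2.08 in proatcape1 and 1.58 to 1.91 in WT.

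PIP2-3 (AT2G37180), long known as the dehydration-responsive gene RD28, had 1.31, 1.56 and 1.51 in proatcape1 salt, against 0.396, 0.44 and 0.387 in proatcape1 control. It had 1.83, 1.79 and 2.09 in WT salt, against 0.461, 0.594 and 0.437 in WT control. Both genotypes showed over 3.5-fold more signal in salt, 1.84 (SE 0.12) in proatcape1 and 1.95 (SE 0.12) in WT on the log2 scale. Its neighbour in the genome, PIP2-2 (AT2G37170), rose by 1.07 (SE 0.13) in proatcape1 and 0.93 (SE 0.13) in WT. These neighbours have 1 kept probe each, and whether a probe also binds the other's transcript was not tested. PIP2-5 (AT3G54820) rose by 1.20 (SE 0.08) in proatcape1 and 1.28 (SE 0.08) in WT.

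PIP2-4 (AT5G60660), a PIP found mainly in roots, was the PIP that fell most in both genotypes. It had 0.273, 0.3 and 0.289 in proatcape1 salt, against 1.05, 1.39 and 1.05 in proatcape1 control, and the 2 groups were far from overlapping. It had 0.314, 0.306 and 0.315 in WT salt, against 1.37, 1.54 and 1.18 in WT control. The log2 change was −2.0 (SE 0.12, adjusted p = 4.13e-08) in proatcape1 and −2.12 (SE 0.12, adjusted p = 3.94e-08) in WT. PIP2-8 (AT2G16850), also called PIP3B, had 0.358, 0.425 and 0.404 in proatcape1 salt, against 0.896, 0.892 and 1.12 in proatcape1 control. It had 0.491, 0.568 and 0.518 in WT salt, against 0.751, 0.938 and 0.932 in WT control. It was lower in both, by −1.29 (SE 0.12) in proatcape1 and −0.73 (SE 0.12) in WT. PIP2-6 (AT2G39010), a leaf PIP, and PIP2-7 (AT4G35100) were not called. PIP2-6 changed by 0.35 (SE 0.05) in proatcape1 and 0.25 (SE 0.05) in WT, inside 1.5-fold but with salt arrays above control arrays. PIP2-7 changed by −0.01 (95% interval −0.16 to 0.14) in proatcape1 and 0.06 (−0.09 to 0.21) in WT, an interval well inside 1.5-fold.

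**Figure D2:**
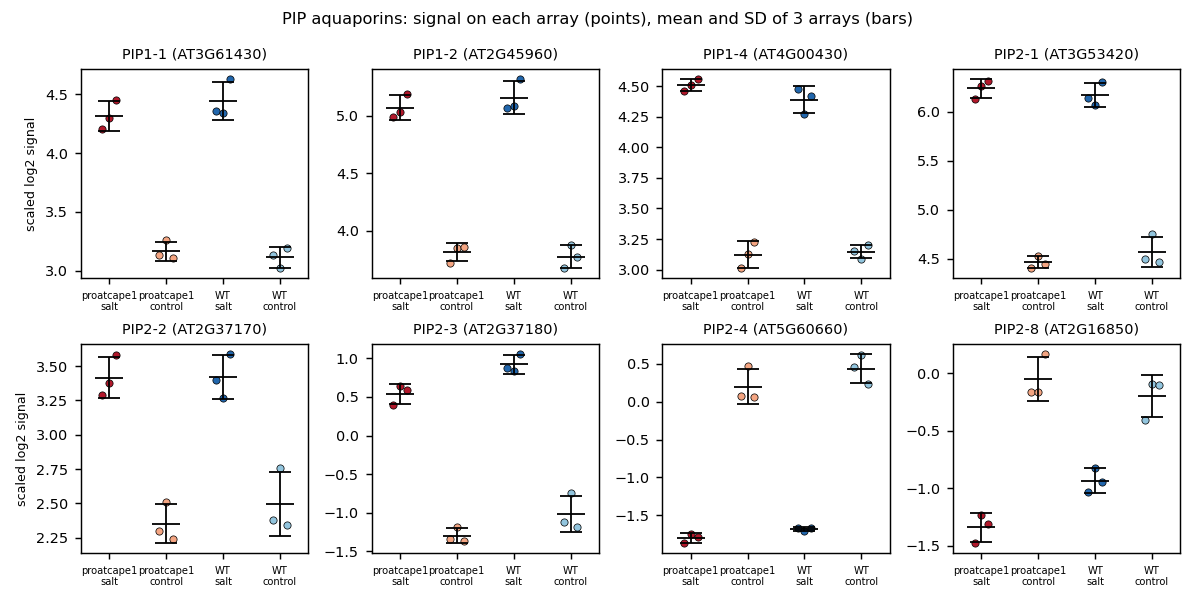
Scaled log2 signal (y axis, log2 of relative signal) of 8 PIP aquaporins on each of the 12 arrays, by group on the x axis. Points are arrays and bars are the mean and SD of 3 arrays. The first 6 panels are higher in salt and PIP2-4 and PIP2-8 lower, with no overlap between salt and control in either genotype.

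The TIPs were lower in salt or not called, with TIP3-1 as the exception. TIP2-3 (AT5G47450), a tonoplast channel that carries ammonia in yeast, had a relative signal of 0.321, 0.45 and 0.32 in proatcape1 salt, against 0.931, 0.982 and 0.935 in proatcape1 control. In WT it had 0.453, 0.477 and 0.618 in salt, against 1.59, 1.91 and 1.5 in control. The salt arrays lay below every control array of their genotype, with changes of −1.40 (SE 0.15, adjusted p = 5.75e-06) in proatcape1 and −1.70 (SE 0.15, adjusted p = 1.57e-06) in WT. TIP4-1 (AT2G25810), a TIP found in roots, had 1.09, 0.968 and 1.19 in proatcape1 salt, against 2.23, 2.37 and 2.08 in proatcape1 control. It had 0.704, 0.945 and 0.961 in WT salt, against 1.73, 1.99 and 1.92 in WT control. It was 2.06-fold lower in proatcape1 (−1.04, SE 0.12) and 2.18-fold lower in WT (−1.12, SE 0.12).

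TIP2-1 (AT3G16240), δ-TIP, was lower as well, with −0.63 (SE 0.11) in proatcape1 and −0.61 (SE 0.11) in WT. These values lie near 1.5-fold, and quantile normalization puts both inside it, at −0.56 and −0.43. The probe used gave the smallest fall of the kept probes of TIP2-1. The others gave −0.71 to −0.79 in proatcape1 and −0.67 to −0.79 in WT. TIP1-2 (AT3G26520) had 22.8, 27.5 and 27.5 in proatcape1 salt, against 41.3, 43.9 and 41.4 in proatcape1 control. It had 29.5, 30.8 and 36.4 in WT salt, against 39.8, 47.2 and 41.9 in WT control. It was called lower in proatcape1 only, at −0.71 (SE 0.10), against −0.42 (SE 0.10) in WT. The difference between the 2 salt changes was −0.29 (95% interval −0.60 to 0.02, adjusted p = 0.21), so a difference between genotypes was not shown. All 5 probes of TIP1-2 were lower in both genotypes. With quantile normalization its change in proatcape1 was −0.52, inside 1.5-fold and not called. TIP1-1 (AT2G36830), γ-TIP, was not called, with 0.28 (SE 0.07) in proatcape1 and 0.37 (SE 0.07) in WT, nor was TIP5-1, a TIP of pollen, with 0.03 (SE 0.14) and 0.16 (SE 0.14). The other kept probes of TIP1-1, all dimmer, gave −0.03 to 0.02 in proatcape1 and 0.29 to 0.31 in WT.

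TIP2-2 (AT4G17340) was also called in proatcape1 alone. It had 5.78, 8.55 and 10.3 in proatcape1 salt, against 11.9, 13.8 and 11 in proatcape1 control, and replicate 1 was the lowest of the salt arrays. It had 10.7, 11.4 and 14.6 in WT salt, against 16.2, 18.6 and 14.1 in WT control, where the groups overlapped. The change was −0.61 (SE 0.20, adjusted p = 0.0155) in proatcape1 and −0.42 (SE 0.20, adjusted p = 0.0738) in WT, with a difference of −0.18 between them (adjusted p = 0.706). Without proatcape1 salt replicate 1 the change in proatcape1 was −0.37 (adjusted p = 0.0577), and without proatcape1 control replicate 2 it was −0.52 (adjusted p = 0.0576), neither of them called. Quantile normalization gave −0.54 in proatcape1 (adjusted p = 0.0256), inside 1.5-fold and not called.

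TIP3-1, α-TIP, is a channel of protein storage vacuoles in seeds. It had a relative signal of 0.0372, 0.0521 and 0.0505 in proatcape1 salt, against 0.157, 0.0291 and 0.0571 in proatcape1 control. It had 0.0532, 0.0895 and 0.0498 in WT salt, against 0.0202, 0.0236 and 0.0308 in WT control. The proatcape1 control arrays held the highest value of all and also 1 below every salt array, and WT control was low on all 3 arrays. The WT change was 1.34 (SE 0.49, adjusted p = 0.0271), and the proatcape1 change −0.47 (SE 0.49, adjusted p = 0.385). The gene met the filter only through WT salt, where its signal was over 100 on every array. The call in WT was lost without WT salt replicate 2 (1.07, adjusted p = 0.0965), WT control replicate 1 (1.20, adjusted p = 0.0787) or WT control replicate 2 (1.31, adjusted p = 0.0601), and with array weights (adjusted p = 0.131). The normexp background correction gave 0.75.

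Seed storage transcripts varied between the same arrays. The 9 seed markers, none of which met the filter, summed to a relative signal of 0.108, 0.321 and 0.326 in proatcape1 salt and 0.993, 0.091 and 0.623 in proatcape1 control. They summed to 0.127, 0.556 and 0.0916 in WT salt and 0.0753, 0.0397 and 0.0399 in WT control. Replicate 1 of proatcape1 control and replicate 2 of WT salt, the highest arrays of their groups for these markers, were also the highest for TIP3-1, which was not so in proatcape1 salt and WT control. Markers that were well above background on no array numbered 4 of 9 in proatcape1 salt, 3 in proatcape1 control, 1 in WT salt and 6 in WT control. The part of seed transcripts in the TIP3-1 values was not tested.

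**Figure D3:**
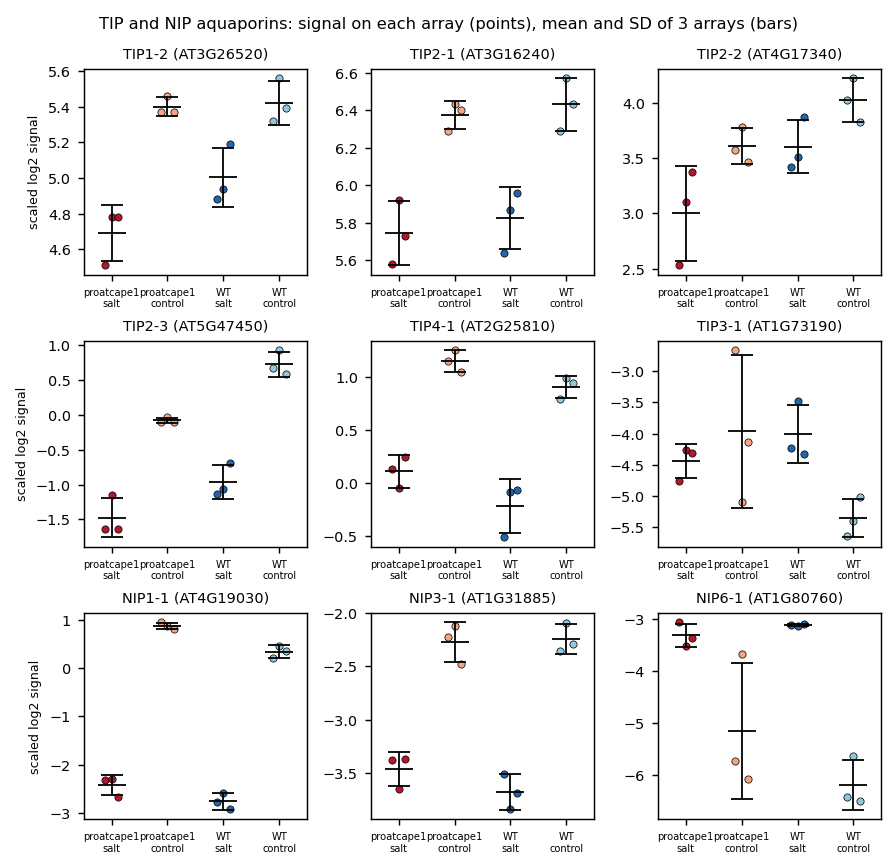
Scaled log2 signal (y axis) of 6 TIP and 3 NIP aquaporins on each array, by group on the x axis, with points for arrays and bars for the mean and SD of 3 arrays. The y axes differ between panels. TIP3-1 and NIP6-1 show the wide spread of the 3 proatcape1 control arrays, and NIP1-1 the separation of salt and control.

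Among the NIPs, NIP1-1 fell furthest and NIP6-1 rose, while 3 others were not called. NIP1-1 (AT4G19030), through which arsenite enters roots, had a relative signal of 0.203, 0.205 and 0.158 in proatcape1 salt, against 1.92, 1.82 and 1.75 in proatcape1 control. In WT it had 0.147, 0.167 and 0.133 in salt, against 1.15, 1.37 and 1.28 in control. It was 9.76-fold lower in proatcape1 (−3.29, SE 0.11, adjusted p = 1.11e-09) and 8.55-fold lower in WT (−3.10, SE 0.11, adjusted p = 2.44e-09). NIP3-1 (AT1G31885), another arsenite channel of roots, had 0.096, 0.0799 and 0.0964 in proatcape1 salt, against 0.214, 0.231 and 0.179 in proatcape1 control. It had 0.0877, 0.0697 and 0.0777 in WT salt, against 0.195, 0.235 and 0.205 in WT control. It fell in both, with −1.19 (SE 0.12) in proatcape1 and −1.43 (SE 0.12) in WT.

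NIP6-1 is a boric acid channel that directs boron to young shoot tissue. It had 0.12, 0.0875 and 0.0971 in proatcape1 salt, against 0.0188, 0.0792 and 0.0148 in proatcape1 control. It had 0.116, 0.115 and 0.117 in WT salt, against 0.0116, 0.0201 and 0.0111 in WT control. Replicate 2 was the highest array of each control group, and that of proatcape1 lay close to the salt arrays. The change was 1.84 (SE 0.51, adjusted p = 0.00568) in proatcape1, where the slides gave 2.67, 0.14 and 2.71, and 3.08 (SE 0.51, adjusted p = 0.000193) in WT. Without proatcape1 control replicate 2 the proatcape1 change was 2.59 (adjusted p = 4.22e-06), and without replicate 3 of that group it was 1.38 (adjusted p = 0.0253). The difference between the salt changes was −1.24 (95% interval −2.82 to 0.35, adjusted p = 0.291). NIP6-1 met the filter only in the 2 salt groups, so a gene of its level had to be high there to be tested at all. With the normexp background correction the change was 1.20 in proatcape1 and 1.81 in WT.

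The remaining tested NIPs were not called. NIP5-1 (AT4G10380), the boric acid channel of root boron uptake, changed by 0.01 (95% interval −0.18 to 0.20) in proatcape1 and 0.00 (−0.18 to 0.19) in WT. NIP1-2 (AT4G18910) changed by 0.02 (−0.09 to 0.12) in proatcape1 and 0.01 (−0.10 to 0.11) in WT, and NIP4-2, a pollen NIP, by −0.10 in both. Of the SIPs, SIP1-2 (AT5G18290) rose by 0.67 (SE 0.12) in proatcape1 and 0.89 (SE 0.12) in WT. With the normexp background correction its change in proatcape1 was 0.58, inside 1.5-fold and not called. SIP1-1 (AT3G04090) changed by −0.50 (SE 0.06) and −0.49 (SE 0.06), and SIP2-1 (AT3G56950) by 0.43 (SE 0.08) and 0.36 (SE 0.08), in proatcape1 and WT, all inside 1.5-fold although salt and control arrays did not overlap.

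The members of a locus with several kept probes could be read more than once. Of 14 such members, the kept probes had 1 sign in 11 in proatcape1 and in 13 in WT. PIP1-3, PIP2-7 and TIP1-1 had probes of both signs in proatcape1, and PIP2-7 in WT. Those of the called members all kept their direction.

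**Figure D4:**
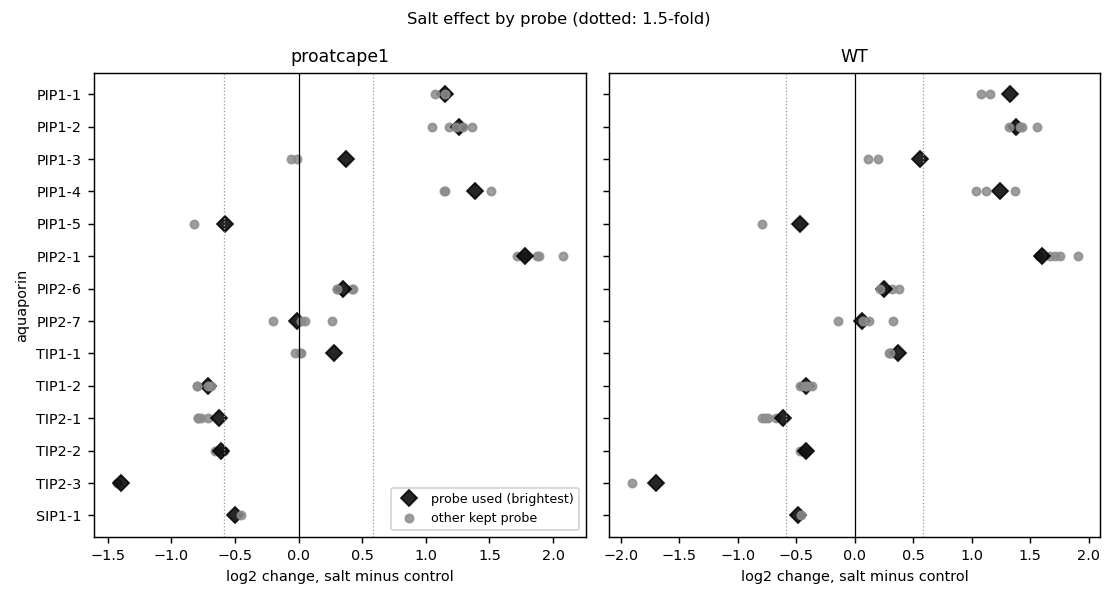
Log2 salt change (x axis) of every kept probe of the 14 aquaporins with more than 1 kept probe, in proatcape1 (left) and WT (right). Black diamonds are the brightest probe, which was used, grey points the others, and dotted lines mark 1.5-fold. The probes of PIP2-1 and TIP2-1 stay on 1 side of 0 and those of PIP2-7 do not.

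Several root genes were also lower in salt. Members known from roots went different ways beside them. Of those described here, PIP2-4, TIP4-1, NIP1-1 and NIP3-1 fell, PIP2-1 rose, NIP5-1 was not called and NIP2-1 was not tested. They were named after their values were seen. Of 10 root markers, 0 rose and 6 fell in proatcape1 (median −1.15), and 0 rose and 7 fell in WT (median −1.54). Over all genes tested, 26.2% were called lower in proatcape1 (median −0.13) and 21.8% in WT (median −0.11). The root hair genes COBL9 and EXPA7 changed by −2.51 and −2.41 in proatcape1 and −2.47 and −2.38 in WT. The smallest root marker changes were −0.21 in proatcape1 and −0.32 in WT, neither called. Summed over the 10, root markers had a relative signal of 105 to 109 in proatcape1 salt and 121 to 134 in proatcape1 control, and 80.2 to 92.2 in WT salt and 116 to 128 in WT control. All 10 were well above background in every group on at least 1 array. Of 10 shoot markers 0 rose and 1 fell in each genotype, PORB, a chlorophyll synthesis enzyme, at −3.62 in proatcape1 and −2.82 in WT. The part of these root transcripts in the aquaporin values was not tested, and whether the share of root RNA changed cannot be told from whole seedlings. Of 5 pollen markers 1 was tested, ACA9, which was lower in both, at −1.54 in proatcape1 and −2.15 in WT.

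Proteins that move, tag or phosphorylate PIPs were read from a list of 12, of which 11 were tested. In proatcape1 3 rose and 1 fell (median 0.15), and in WT 3 rose and 1 fell (median 0.08), beside 45.8% and 39.3% of all genes called in proatcape1 and WT, so the list's share was not above that of all genes. TSPO, which binds PIP2-7 and sends it to degradation, rose by 9.13 (SE 0.31) in proatcape1 and 8.95 (SE 0.31) in WT. UBC32, a ubiquitin-conjugating enzyme of the endoplasmic reticulum, rose by 2.52 (SE 0.12) in proatcape1 and 1.71 (SE 0.12) in WT. The interaction was called for UBC32 (0.81, SE 0.17, adjusted p = 0.0235), as was its higher level in proatcape1 salt than in WT salt (0.77, SE 0.12, adjusted p = 0.00179). SIRK1, a receptor kinase that acts on PIPs, was called lower in proatcape1 (−0.71) and changed by −0.47 in WT. RMA3, a membrane ubiquitin ligase, was called lower in WT (−0.70) and changed by −0.57 in proatcape1. The interaction was called for neither SIRK1 (−0.25, adjusted p = 0.125) nor RMA3 (0.14, adjusted p = 0.548). Of 7 boron exporters, which work beside NIP5-1 and NIP6-1 in boron transport, 4 were tested. In each genotype 3 rose and 0 fell, where 19.6% of all genes were called higher in proatcape1 and 17.5% in WT. The largest changes were those of BOR5, 3.64 (SE 0.16) in proatcape1 and 3.57 (SE 0.16) in WT, and BOR1, 1.01 (SE 0.08) in proatcape1 and 1.21 (SE 0.08) in WT.

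Between the genotypes 1 aquaporin was called under salt, TIP2-2, and 1 in control, TIP2-3, both lower in proatcape1. Under salt, 0 of the 30 tested members were higher and 1 was lower in proatcape1, where 4.66% of all genes were called, 2.71% higher and 1.95% lower. In control, 0 were higher and 1 was lower, where 2.12% of all genes were called, 0.967% higher and 1.16% lower. Over all 30 members the median difference, proatcape1 minus WT, was −0.04 under salt and 0.03 in control, against −0.01 and 0.00 over all genes tested. The share of members called was near that of all genes, and the third TIP2 member, TIP2-1, differed by −0.08 under salt and −0.06 in control, not called in either.

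TIP2-2 was the member called under salt. Its relative signal was 5.78, 8.55 and 10.3 in proatcape1 salt, against 10.7, 11.4 and 14.6 in WT salt, so that every proatcape1 array lay below every WT array. The difference was −0.60 (SE 0.20, adjusted p = 0.0413), 1.51-fold, close to both limits. Its 4 probes gave −0.57 to −0.61. The same gene had −0.41 (SE 0.20, adjusted p = 0.285) in control, where the proatcape1 arrays also lay below the WT arrays. The call was lost without proatcape1 salt replicate 1 (−0.36, adjusted p = 0.127), proatcape1 salt replicate 2 (−0.65, adjusted p = 0.0675), WT salt replicate 2 (−0.64, adjusted p = 0.0798) or WT salt replicate 3 (−0.46, adjusted p = 0.137). It was also lost when only the 6 salt arrays were fitted (−0.60, adjusted p = 0.0895), and without replicate 1 of WT control (adjusted p = 0.0534) or of proatcape1 control (adjusted p = 0.0564).

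TIP2-3 was the member called in control. Its relative signal was 0.931, 0.982 and 0.935 in proatcape1 control, against 1.59, 1.91 and 1.5 in WT control, with no overlap and little spread in the mutant. The difference was −0.81 (SE 0.15, adjusted p = 0.013), 1.75-fold, and the slides gave −0.78, −0.96 and −0.69. Its second probe gave −0.91. The call was kept without each array in turn, with differences of −0.71 to −0.88. Under salt TIP2-3 differed by −0.51 (SE 0.15, adjusted p = 0.0262), 1.42-fold and so not called.

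**Figure D5:**
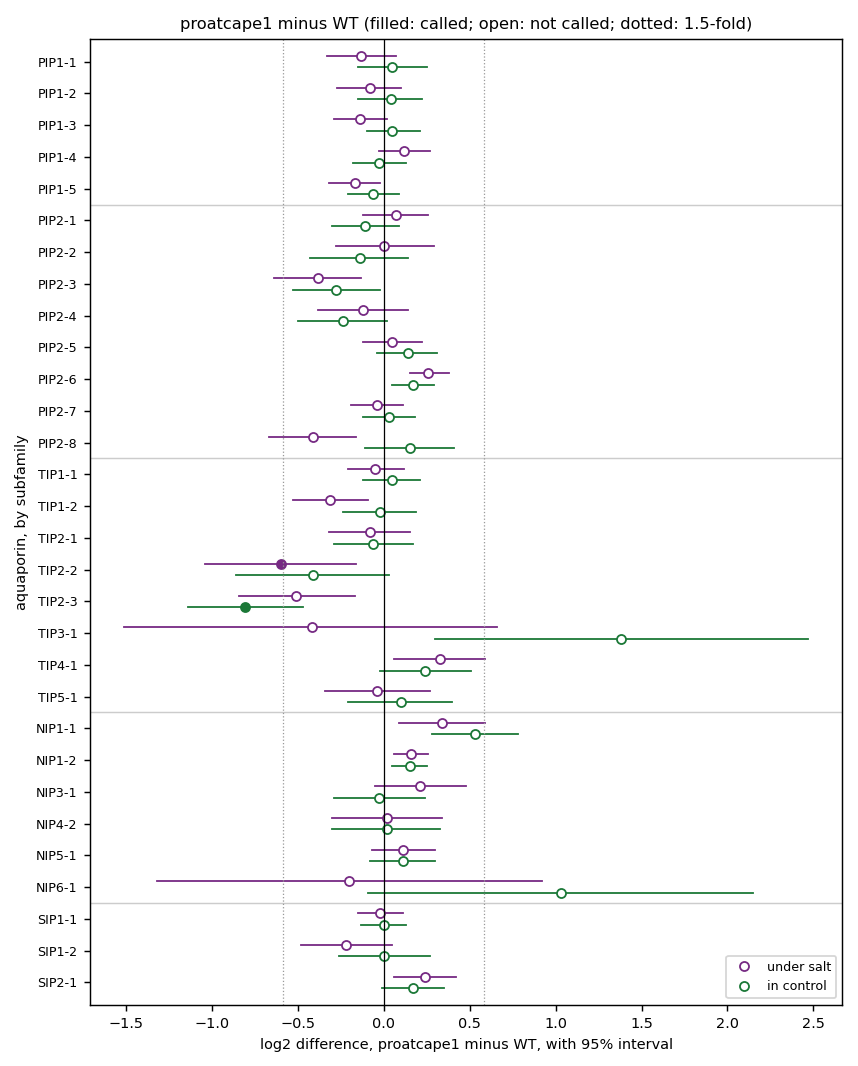
Log2 difference of 30 tested aquaporins, proatcape1 minus WT, on the x axis, with members down the page by subfamily. Purple is under salt and green in control, bars are 95% intervals, filled points were called and dotted lines mark 1.5-fold. TIP2-2 under salt (−0.60) and TIP2-3 in control (−0.81) are the filled points, and TIP3-1 and NIP6-1 have the widest bars.

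With no fold threshold, 4 members were higher and 5 lower in proatcape1 under salt, where 14.6% of all genes were higher and 19.4% lower, shares near those of the members. In control 1 was higher and 1 lower, where 3.27% of all genes were higher and 2.49% lower. The member higher in control was NIP1-1, with 1.92, 1.82 and 1.75 in proatcape1 control, against 1.15, 1.37 and 1.28 in WT control, a difference of 0.53 (SE 0.11, adjusted p = 0.0233). Under salt, PIP2-6 (0.26), NIP1-1 (0.34), NIP1-2 (0.16) and SIP2-1 (0.24) were higher in proatcape1, and PIP2-3 (−0.38), PIP2-8 (−0.41), TIP1-2 (−0.31) and TIP2-3 (−0.51) lower, beside TIP2-2. PIP2-1, called higher in salt than in control in both genotypes, differed between genotypes by 0.07 (95% interval −0.12 to 0.26) under salt. In control it differed by −0.11 (−0.30 to 0.09), inside 1.5-fold in both. The root marker SKOR, which loads potassium into the xylem, was lower in proatcape1 control than in WT control (−0.76, adjusted p = 0.0163), beside TIP2-3. It was the only root marker of 10 called in control, and 0 of 10 were called under salt, where 2.12% and 4.66% of all genes were called. The interaction was called for SKOR as well (0.83, SE 0.21, adjusted p = 0.0423). Of 10 shoot markers, 1 was called under salt, PORB, lower in proatcape1 (−0.70, adjusted p = 0.000423). Its interaction was also called (−0.80, adjusted p = 0.00815).

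No member was called for a difference in salt change between genotypes. The interaction, the salt change in proatcape1 minus that in WT, was called in 0 of 30 members by limma, in either direction, where 2.56% of all genes were called, 1.27% higher and 1.29% lower. At an unadjusted p of at most 0.05 and over 1.5-fold it was 1 member, TIP3-1 (−1.81, SE 0.69, adjusted p = 0.127). PIP2-8 came next in size among members with a narrow spread, at −0.56 (SE 0.16, adjusted p = 0.0619), 1.48-fold, with slides at −0.71, −0.34 and −0.63. The 95% intervals leave room for differences past 1.5-fold in some members, such as −0.81 to 0.44 for TIP2-2, and not in others, such as −0.10 to 0.45 for PIP2-1 and −0.38 to 0.14 for PIP1-2.

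The 5 members that were not tested were dim. TIP1-3 and TIP3-2 were not well above background on any array, with processed signals of 2.19 to 7.01 and 4.04 to 11.9. NIP2-1, a root NIP that low oxygen induces, was well above background on 1 of 3 arrays in each salt group and on 0 in each control group. It had processed signals of 12.6, 8.15 and 28 in proatcape1 salt and 8.87, 7.57 and 10.4 in proatcape1 control, and 17.8, 12.4 and 15.1 in WT salt and 6.46, 8.46 and 8.23 in WT control. NIP4-1, the genome neighbour of NIP4-2, was well above background on 1 array in each group but WT control. NIP7-1, a boric acid channel of anthers, was well above background on all 12 arrays but passed 100 on all 3 arrays of no group.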

How the data were processed

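The authors labelled RNA with Cy3, hybridized it to Agilent Arabidopsis arrays and read these with Feature Extraction, and the deposited processed signal is a background-corrected intensity, not scaled between arrays. The authors' deposited normalized values are log2, made in GeneSpring against WT control. The authors kept genes by raw signal over 100 and CV under 50%. Here these limits were put on the background-corrected signal, and probes that met them throughout 1 or more groups were used. Here log2 signal minus each array's 75th percentile was used, with the brightest of the kept probes per locus. One limma model (limma 3.58.1, R 4.3.3) of 4 group means, without a block, was fitted to 19027 genes, with Benjamini-Hochberg adjustment over all of them. The procedure was also run on simulated data with independent arrays, without the shared slides of these data, so that run adds no support here. Figures were drawn with matplotlib 3.10.9.

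Values are named by this rule: all members, with each array's value for those called between genotypes, called in 1 genotype's salt effect only, or among the 5 largest salt increases or decreases, and up to 2 called genes in each direction of every other list. The members and lists were chosen with earlier results of these data known. Replicates of 1 number shared a slide, and their deviations from the group means correlated at 0.31, 0.24 and 0.37 between proatcape1 salt and WT salt. No member sequence was used here. Alternatives covered the background correction, scaling, filter, probes, arrays fitted, variance model, replicate or slide block, thresholds, the authors' log2 values and leaving out each array.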

Additional observations from a re-analysis of the deposited data

Results flagged for a closer look

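NIP7-1 lay outside the main tests, since its signal did not pass the filter, yet it was well above background on all 12 arrays and its 3 WT salt arrays all lay above its 3 WT control arrays. The processed signals were 139, 95 and 112 in WT salt and 80.7, 84.7 and 66.7 in WT control, a difference of 0.59 in scaled log2 signal. In proatcape1 they were 79.4, 91.5 and 64.4 in salt and 81.7, 67.7 and 77.3 in control, and the groups overlapped. It was singled out for these values. Among the alternatives it was called higher in WT with no filter on dim probes (adjusted p = 0.00715) and with a well-above-background filter (adjusted p = 0.00427). Without WT salt replicate 2 it was called higher in WT as well (0.72, adjusted p = 0.00106), but then met the filter only through WT salt.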

How the results depend on the processing

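The 37 called changes were each recomputed under the alternatives. Leaving aside the thresholds, the single slides and the omission of arrays outside the groups compared, this gave 629 values, of which 22 were not called and 0 had the opposite direction. Some of these settings change only the spread, not the estimate. The groups compared did not overlap for any called change, so leaving out 1 of their arrays could not reverse the direction of the same probe. The absence of opposite directions was thus partly fixed in advance. The counts of members higher and lower in each salt effect stayed within 1.5 times their reported values under every alternative run. Under salt, the count lower in proatcape1 was 0 instead of 1 with median scaling, with no filter on dim probes, with only the groups compared and with a 2-fold threshold, 2 with array weights and 5 with no fold threshold, which also gave 4 higher. Leaving out each array gave 0 to 2. In control, the count higher was 1 instead of 0 with array weights (TIP3-1), with an unadjusted p and with no fold threshold, and leaving out each array gave 0 to 1, while a 2-fold threshold gave 0 lower. For the interaction, an unadjusted p gave 1 lower member, and leaving out each array gave 0 to 1. The 1 was TIP3-1 without proatcape1 control replicate 2 (−2.38, adjusted p = 0.0382) and PIP2-8 without WT salt replicate 1 (−0.61, adjusted p = 0.0497). The PIP2 median in proatcape1 was 0.80 with quantile normalization, and the PIP1 median in WT was 1.39 with quantile normalization and 1.19 with the mean of probes. The cause was not tested. The replicate block, which equals the slide block here, left every count as it was, with 9 higher and 9 lower in proatcape1 and 10 higher and 7 lower in WT. Between control groups the same-numbered deviations correlated at 0.09, 0.21 and 0.30, and between salt and control of WT at −0.12, −0.20 and −0.11. Of the tested members, TIP3-1 and NIP6-1 had the largest standard errors (0.49 and 0.51), while TIP5-1 and NIP4-2, also dim, had 0.14.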
